A study of Mus musculus with 12 samples.

Results

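Chst9, Zfp641, Clic3 and Pitpnm3 are 4 genes of the 39017 in the deposited count table, taken by their symbol. They were chosen by their measured log2 fold changes, each of which had the same sign in both selections of the study, so their changes from parental to aggressive tumours are described here and not tested. Chst9 and Zfp641 were higher in aggressive tumours of both lines, and Clic3 and Pitpnm3 were lower in aggressive tumours of both lines. All 4 were among the 19370 genes that passed the filter on low counts.

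RNA was measured in 12 bulk mammary tumours, 3 in each of 4 groups, grown from NIC cells, an ErbB2-positive mouse breast cancer line that lacks p66ShcA. Host animals were female FVB/N mice aged 8 to 12 weeks. Each received 250000 cells in PBS and matrigel in the fourth fat pad, under the analgesics carpofen (spelled as in the labels) and lidocaine. The NIC/p66Low and NIC/p66High lines differ in p66ShcA, the longest isoform of the Shc1 adaptor protein, which was added for constitutive overexpression. The promoter, the construct in p66Low cells and whether a line is 1 clone are not stated in the sources used here. Parental tumours came from unselected cells. Aggressive tumours came from populations that had gone through 2 rounds of growth in the fat pad and had been taken back into culture, and each aggressive group therefore stands for 1 selected population of its line. In p66High parental and in p66High aggressive tumours, replicates 1 and 2 share a number in their titles, followed by the letters L and R. The meaning of these letters is not stated. Each n given here counts tumours. Whether tumours came from separate mice is not stated, and p-values then measure only the spread between these samples.

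The products of these genes work in different parts of the cell. Chst9 encodes a Golgi sulfotransferase that adds sulfate to terminal N-acetylgalactosamine on secreted and membrane glycoproteins. Zfp641 encodes a zinc finger protein of the nucleus, whose human counterpart carries a KRAB domain. Clic3 belongs to the chloride intracellular channel family of small proteins with a glutathione transferase fold, and is known in cancer cells for returning integrins from late endosomes to the surface together with Rab25. Pitpnm3, also called Nir1, belongs to the membrane-associated phosphatidylinositol transfer family, binds the kinase Pyk2, and its human counterpart has been described as a receptor of the chemokine CCL18 on breast cancer cells.

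Promoter sequences are shown as a description only. The shared direction of the genes was fixed by their choice and is no sign of shared control. Chst9 had no window, so the genes that rose cannot be compared with each other. Windows from RefSeq (build GRCm38.p6) matched 3 of the 4 genes, and the 250 bases before each RefSeq gene start are printed on the strand of the gene. Capitals mark matches, on either strand, to the GC box GGGCGG or the E-box CANNTG. Zfp641 is shown from chr15:98296162-98296411 (minus strand), Clic3 from chr2:25456593-25456842 (plus strand) and Pitpnm3 from chr11:72135890-72136139 (minus strand).
Zfp641: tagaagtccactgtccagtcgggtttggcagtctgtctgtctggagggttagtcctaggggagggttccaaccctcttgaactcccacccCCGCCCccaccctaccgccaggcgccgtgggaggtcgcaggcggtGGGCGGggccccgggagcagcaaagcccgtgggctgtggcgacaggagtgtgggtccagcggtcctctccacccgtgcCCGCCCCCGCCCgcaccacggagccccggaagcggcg
Clic3: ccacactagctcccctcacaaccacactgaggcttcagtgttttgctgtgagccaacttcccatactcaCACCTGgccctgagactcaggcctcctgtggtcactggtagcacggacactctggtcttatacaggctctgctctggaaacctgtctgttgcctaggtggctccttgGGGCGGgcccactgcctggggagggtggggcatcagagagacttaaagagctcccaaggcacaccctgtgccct
Pitpnm3: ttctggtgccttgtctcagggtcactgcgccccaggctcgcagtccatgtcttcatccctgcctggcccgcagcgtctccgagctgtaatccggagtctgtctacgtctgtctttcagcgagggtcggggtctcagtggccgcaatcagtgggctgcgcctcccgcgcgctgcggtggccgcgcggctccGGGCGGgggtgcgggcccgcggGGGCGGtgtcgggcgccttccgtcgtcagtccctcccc

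The GC box was present in all 3 windows of 300 bases, which also hold the 50 bases from the start on. Zfp641 had 5 matches, Pitpnm3 3 and Clic3 1, and 35.7% of all 32851 windows of that length held at least 1. The 5 matches of Zfp641 began 160, 115, 37 and 31 bases before the start and at base 14 after it. The window of Clic3, a gene that fell, held 1 E-box 181 bases before the start, a match that 72.3% of all windows have, and neither other window held one. None of the 3 windows held TGANTCA (AP-1, in 7.81% of all windows), NACGTG (hypoxia response core, 19.6%), TTCNNNGAA (STAT, 8.30%), CCAAT (37.4%), TATAAA (13.6%) or the interferon response element (3.44%). The share of G and C was 70.7% for Zfp641, 72.3% for Pitpnm3 and 60.7% for Clic3, and 91.4%, 93.5% and 72.2% of all windows had less. These matches are letters in a window and say nothing about binding.

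Libraries held between 17.4 and 76.1 M counts (mega-counts), so that 3 counts, the floor for an undetected gene, were worth between 0.0394 and 0.156 CPM (counts per 1 M counts of TMM-scaled library). Such floors, and the counting intervals (95%) given beside ratios of summed reads, cover counting error alone. Shc1, counted over all its isoforms, followed the labels, with 59.0 to 69.9 CPM in p66Low and 223 to 774 CPM in p66High tumours. The epithelial label held in every tumour: Epcam lay between 572 and 928 CPM and Krt8 between 576 and 1006 CPM. The libraries of p66High parental replicate 3 and p66Low aggressive replicates 1 and 2 held 73.0, 210 and 307 CPM of 10 lymph node stroma markers, against 0.550 to 4.08 CPM in the other 9, and are called the 3 lymph-node-rich libraries. In bulk tumours, fewer cells of a type and less RNA per cell cannot be told apart.

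Chst9 (ENSMUSG00000047161, mm10 chromosome 18, 15451924 to 15760157, minus strand, protein coding) was near the limit of detection in parental tumours and clearly counted in aggressive ones. Parental p66Low tumours held 0.0540, 0.0812 and 0.156 CPM, from 2, 2 and 6 reads, the first pair under the floor of 3. Aggressive p66Low tumours held 1.56, 1.25 and 3.37 CPM, from 30, 81 and 236 reads. All 3 aggressive tumours lay above all 3 parental ones, and p66Low aggressive replicate 3, the deepest of them and the one low in lymph node genes, was the highest.

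In the p66High line, Chst9 was at 0.271, 0.352 and 0.289 CPM in parental tumours and at 5.23, 3.02 and 2.33 CPM in aggressive tumours. These groups again did not overlap. The log2 fold change was 4.35 (SE 0.55) in p66Low and 3.55 (SE 0.48) in p66High selection, with no test since these contrasts chose the gene. From the summed reads, the ratio of aggressive to parental was 22.6 (counting interval 12.1 to 47.5) in p66Low and 13.0 (9.45 to 18.2) in p66High. In p66Low selection the log2 fold change was 3.76 without p66Low aggressive replicate 3, 4.94 without p66Low parental replicate 3, and 5.03 without the lymph-node-rich libraries.

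Zfp641 (ENSMUSG00000022987, chromosome 15, 98285585 to 98296161, minus strand, protein coding) was the other gene with higher levels after selection. Parental p66Low tumours held 0.486, 0.893 and 0.234 CPM of it, and the aggressive tumours of that line 3.86, 4.44 and 4.92 CPM. In p66High tumours it was 0.541, 0.387 and 0.236 CPM before selection and 5.96, 3.89 and 5.39 CPM after it. The 6 aggressive tumours of both lines lay between 3.86 and 5.96 CPM, above the 6 parental tumours, which lay between 0.234 and 0.893 CPM. The log2 fold change was 3.08 (SE 0.43) in p66Low and 3.73 (SE 0.44) in p66High selection. It lay between 2.72 and 3.63 in p66Low and between 3.41 and 4.08 in p66High when each tumour was left out in turn. Without the lymph-node-rich libraries it was 3.24 and 3.43.

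**Figure D1:**
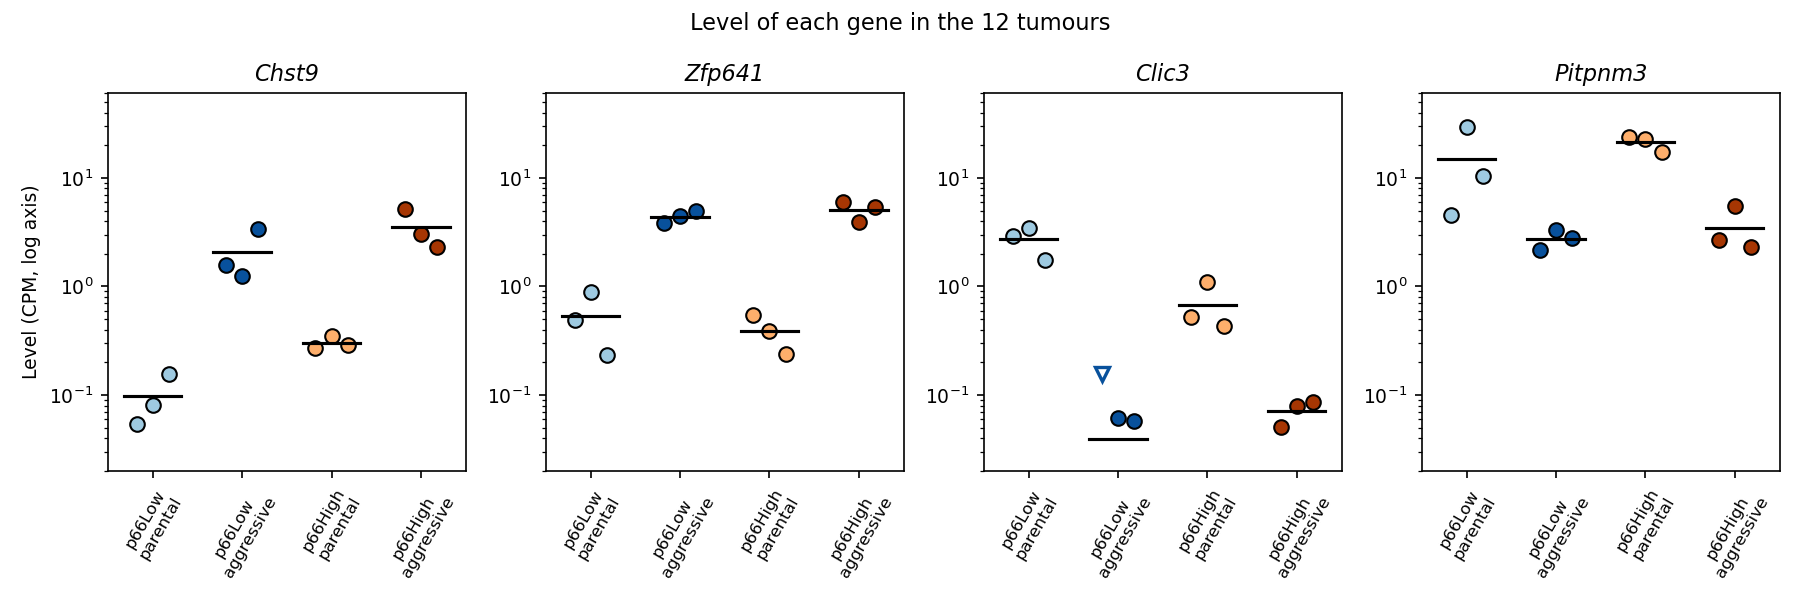
Level of each gene in the 12 tumours (CPM, log axis), by group, with 1 point per tumour and a line at the group mean (n = 3). The open triangle is a tumour with 0 counts of Clic3, drawn at the value of 3 counts (0.156 CPM). Chst9 and Zfp641 are higher and Clic3 and Pitpnm3 lower in the aggressive tumours of each line.

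Clic3 (ENSMUSG00000015093, chromosome 2, 25456838 to 25458776, plus strand, protein coding) was at the limit of detection in aggressive tumours of both lines. Parental p66Low tumours held 2.94, 3.49 and 1.77 CPM, from 109, 86 and 68 reads. In p66Low aggressive tumours 0, 4 and 4 reads were counted, and the 0 allows up to 0.156 CPM in that library. The other 2 were at 0.0619 and 0.0571 CPM.

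Clic3 started lower in the p66High line, with 0.519, 1.09 and 0.433 CPM in parental tumours. Each p66High aggressive tumour had 2 reads, under the floor of 3, or 0.0508, 0.0786 and 0.0863 CPM. Parental and aggressive tumours did not overlap in either line, and neither aggressive group had more than 4 reads in a tumour. The log2 fold change was -5.69 (SE 0.57) in p66Low and -3.20 (SE 0.60) in p66High selection. From summed reads the ratio of parental to aggressive was 50.5 (counting interval 25.3 to 118) in p66Low and 8.57 (3.78 to 23.99) in p66High. The mean level was 2.73 ± 0.88 CPM in p66Low and 0.681 ± 0.358 CPM in p66High parental tumours (SD, n = 3), so the lines entered the comparison at unlike levels.

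Clic3 lies within the span of Paxx, a gene of DNA end joining on the opposite strand, and the strand setting of the counting is not given in the sources used here, so reads of the pair may not be fully told apart. Paxx, listed under an older symbol, was at 13.0 to 25.4 CPM in all 12 tumours. Its log2 fold change was -0.22 (edgeR adjusted p = 0.505) in p66Low and -0.52 (adjusted p = 0.144) in p66High selection. Neither passed the threshold of 0.05.

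Pitpnm3 (ENSMUSG00000040543, chromosome 11, 72047528 to 72135778, minus strand, protein coding) was the member with the most reads and the smallest change. In p66Low parental tumours it varied widely, with 4.56, 29.4 and 10.5 CPM, a coefficient of variation of 87.7%. The aggressive tumours of this line held 2.19, 3.30 and 2.78 CPM, a much narrower range. The p66High parental tumours were closer together at 23.95, 22.9 and 17.4 CPM, and the p66High aggressive tumours had 2.66, 5.46 and 2.33 CPM.

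Groups of a line did not overlap for Pitpnm3, but p66High aggressive replicate 2 lay above p66Low parental replicate 1. The log2 fold change was -2.40 (SE 0.56) in p66Low and -2.62 (SE 0.56) in p66High selection. In p66Low selection it was -1.41 without p66Low parental replicate 2, the tumour with the highest level. Without the lymph-node-rich libraries it was -2.40 in p66Low and -2.76 in p66High.

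**Figure D2:**
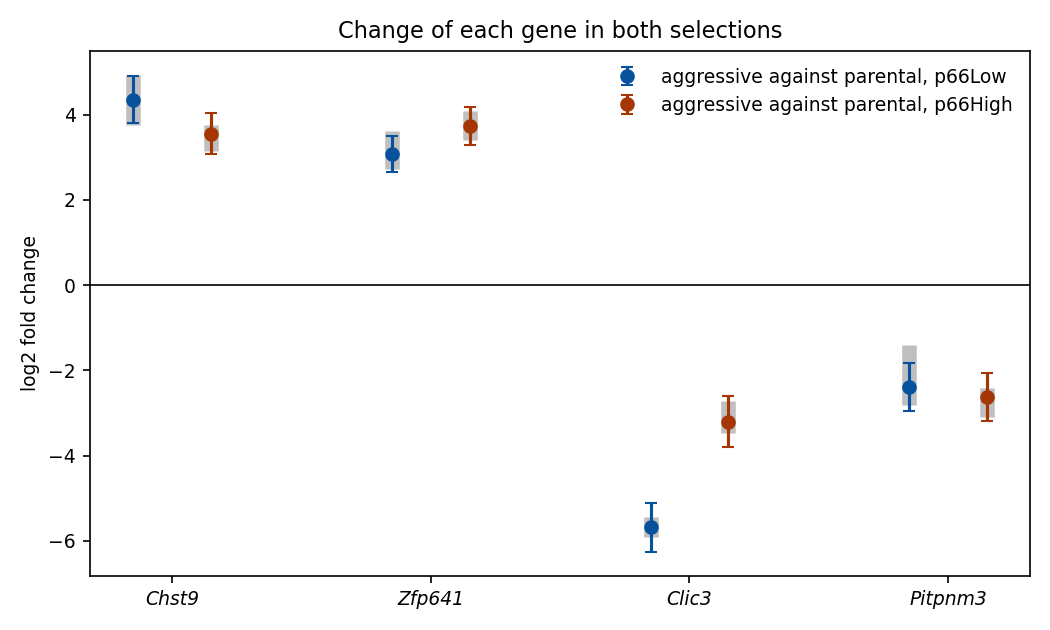
Log2 fold change of each gene between aggressive and parental tumours of the p66Low line (blue) and of the p66High line (brown), with SE bars. Grey bars span the fits without 1 tumour each; both lines lie on the same side of 0 for each gene, and Clic3 has the widest gap between lines (-5.69 and -3.20).

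All 4 genes passed the edgeR threshold in both selections. They were chosen by their changes in these same selections, so this is a description. Of genes tested, 16.6% passed in p66Low (9.6% higher and 7.03% lower) and 5.94% in p66High selection (3.11% higher and 2.82% lower). Parental and aggressive tumours did not overlap for 32.8% of genes in p66Low and 32.6% in p66High. A total of 137 genes (0.707%) were called higher in both selections and 116 (0.599%) lower in both. Ordered by the smaller of their 2 absolute log2 fold changes, Chst9 was in place 2 and Zfp641 in place 4 of the genes higher in both, and Clic3 in place 6 and Pitpnm3 in place 10 of those lower in both. Both counts moved with the libraries used: without the lymph-node-rich libraries they were 52 and 30.

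Per length of annotated exon, the order of the 4 genes turned over with selection. In p66Low parental tumours the level, in CPM per kb, was 2.70 ± 0.87 for Clic3, 1.51 ± 1.32 for Pitpnm3, 0.125 ± 0.078 for Zfp641 and 0.0502 ± 0.0273 for Chst9 (SD, n = 3). The p66Low aggressive tumours gave 1.07 ± 0.59 for Chst9, 1.03 ± 0.12 for Zfp641, 0.281 ± 0.057 for Pitpnm3 and 0.0392 ± 0.0340 for Clic3. Tumours overlapped between Clic3 and Pitpnm3 and between Zfp641 and Chst9 in the former order, and between Chst9 and Zfp641 in the latter. In p66High parental tumours Pitpnm3 led with 2.18 ± 0.36, followed by Clic3 with 0.673 ± 0.353, Chst9 with 0.157 ± 0.022 and Zfp641 with 0.0905 ± 0.0356. In p66High aggressive tumours Chst9 was at 1.82 ± 0.78, Zfp641 at 1.19 ± 0.25, Pitpnm3 at 0.355 ± 0.175 and Clic3 at 0.0710 ± 0.0185. No neighbours overlapped in the p66High parental order, and Chst9 and Zfp641 did in the aggressive one.

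Over the 12 tumours the log2 levels of the genes correlated with Pearson's r between -0.92 (Chst9 with Clic3) and 0.88 (Chst9 with Zfp641), a description over tumours that share the groups used to choose the genes. With the group means taken out, r lay between -0.12 and 0.49. Among p66Low aggressive tumours, replicate 3 led for Chst9 and Zfp641 but replicate 2 for Pitpnm3.

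Whether p66ShcA level went with the genes was compared between p66High and p66Low tumours with both stages averaged. The weights of this contrast are orthogonal to those of the selections. It still shares its tumours and its estimate of spread with them, among them the p66Low parental tumours with 2, 2 and 6 reads of Chst9. Low values there raise both the selection change and the p66 difference, so p-values of the 4 genes are not independent of their choice. Of the 4 genes, 1 passed, Chst9, where 15.6% of genes tested passed (8.04% higher and 7.6% lower in p66High). Its log2 difference was 1.17 (SE 0.36, 95% interval 0.34 to 2.0, edgeR adjusted p = 0.0485). The parental groups did not overlap, with every p66High tumour above every p66Low one, and the aggressive groups did. This call ended in 9 of the 12 fits without 1 tumour (the 3 that kept it left out replicate 3 of p66Low parental, p66Low aggressive or p66High aggressive), with adjusted p from 0.0114 to 0.124 over the 12, and it was 0.255 without the lymph-node-rich libraries.

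The other genes did not pass. Zfp641 had a log2 difference of -0.12 (interval -0.79 to 0.55, edgeR adjusted p = 0.829), Clic3 of -0.80 (interval -1.84 to 0.25, adjusted p = 0.276) and Pitpnm3 of 0.43 (interval -0.45 to 1.30, adjusted p = 0.510). For Clic3 the average joined unlike stages: parental tumours differed by -2.04 (SE 0.44) with no overlap between lines, and aggressive tumours by 0.45 (SE 0.76) at the limit of detection. For Zfp641 and Pitpnm3 the lines overlapped at both stages. Lines did not overlap for 29.9% of genes in parental and 38.2% in aggressive tumours. Coding genes of chromosome 15, where Zfp641 lies, had a median log2 difference of -0.23 in the same averaged comparison, and 26.9% of them passed.

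The genes whose log2 level followed each member most closely over the 12 tumours were taken from 12846 coding genes. The members were chosen for their selection changes, so genes picked for following them tend to change the same way. The changes of such genes, here and in the next paragraph, are a description. For Chst9 they were Agps (r = 0.96), an enzyme of ether lipid synthesis, 2410076I21Rik (0.96), the G-protein signalling regulator gene Rgs2 (0.95), the nuclear envelope gene Syne2 (0.95) and Cdkn2a (0.94), which encodes cell cycle inhibitors. Rgs2 had log2 fold changes of 2.81 in p66Low and 1.82 in p66High selection. For Zfp641 they were Rmnd5a (0.97), the receptor gene Gfra4 (0.97), the cholesterol transport gene Stard3 (0.96), the adenylate cyclase gene Adcy8 (0.94) and Dtx4 (0.94). Adcy8, also on chromosome 15, had changes of 2.90 and 2.26.

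For Clic3 the closest were Dbndd2 (0.96), the transporter gene Abca5 (0.96), Cyb561d2 (0.94), Psapl1 (0.94) and the annexin gene Anxa9 (0.93). Psapl1 had log2 fold changes of -2.84 in p66Low and -1.28 in p66High selection. For Pitpnm3 they were the mineralocorticoid receptor gene Nr3c2 (0.97), Fam211b (0.96), the phospholipase gene Pla2g4a (0.96), Scml4 (0.96) and the transcription factor gene Runx1 (0.96). Runx1 had changes of -0.98 and -1.20. All 5 were, like Pitpnm3, higher in p66Low parental replicate 2 than in the other tumours of that group.

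**Figure D3:**
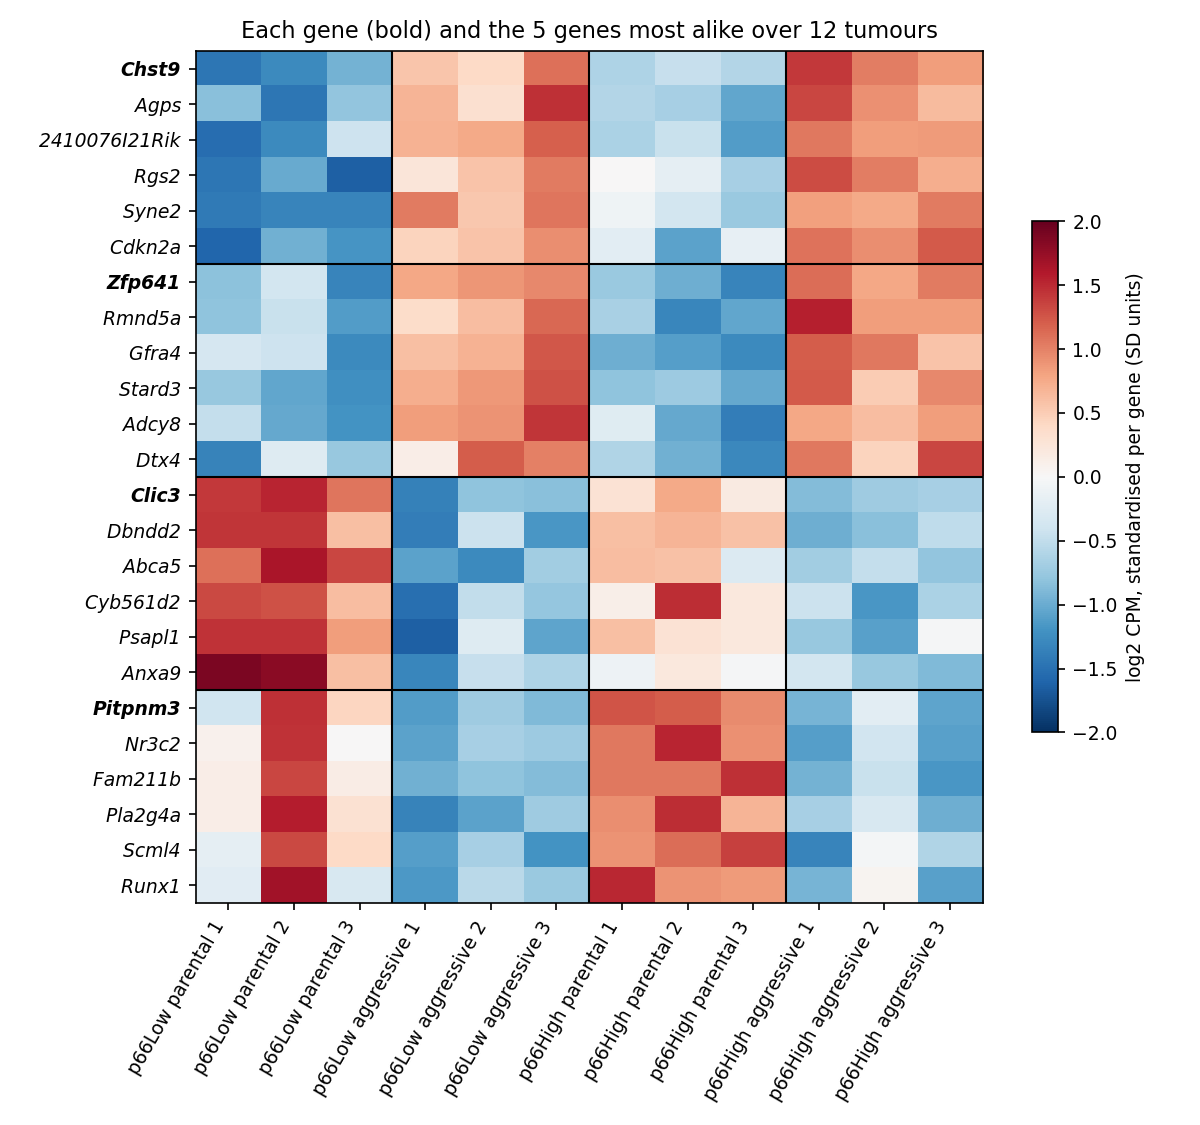
Log2 CPM of each of the 4 genes (bold) and of the 5 coding genes with the highest Pearson's r to it, standardised per gene over the 12 tumours (columns, by group). Red is above and blue below the gene's mean. The Chst9 and Zfp641 blocks are red in aggressive tumours and the Clic3 and Pitpnm3 blocks blue, which the way the genes were picked favours.

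Family members and known partners of the 4 genes, with 14 AP-1 and serum response genes listed beside them, passed at about the rate of other genes. Together they are called family and partner genes, though those 14 are not tied to a member. Of 63 such genes tested, 4 were higher and 3 lower in p66Low selection, and 4 were higher and 2 lower in p66High selection. That is 11.1% and 9.52% of the list, where 16.6% and 5.94% of all genes passed. By edgeR none passed in the same direction in both selections, where 1.31% of all genes did, a share too small to read anything from 63 genes. At an unadjusted p under 0.05 in both, 4 did, and after adjustment 2 did by DESeq2 and 1 by limma-voom. Over all genes, DESeq2 called 241 higher and 236 lower in both, against 137 and 116 by edgeR. Counts at an unadjusted p or by the other tools, here and below, are not read against the edgeR shares of all genes. The median log2 fold change of the 63 genes was 0.07 in p66Low and 0.03 in p66High, beside -0.02 and -0.0021 for all genes tested.

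Around Chst9, the related sulfotransferases Chst10, Chst11, Chst12 and Chst14 were tested, and 1 passed by edgeR. DESeq2 with adjustment called 1 of these 4 in each selection. Chst10, which makes the HNK-1 epitope, rose by 0.81 on the log2 scale in p66High selection (edgeR adjusted p = 0.0183). Chst8, the closest relative of Chst9, did not pass the filter, with at most 0.313 CPM and no read in 6 tumours. Among 7 genes of acceptor synthesis and sulfate supply, 2 were lower in p66Low and 1 higher in p66High selection. B4galnt4, which builds the LacdiNAc unit that Chst9 can sulfate, rose from 1.46 ± 0.17 CPM to 8.00 ± 1.17 CPM in p66High (log2 2.44, SE 0.30, adjusted p = 0.00118). In p66Low, parental tumours held 7.70 ± 3.32 CPM and aggressive ones 13.7 ± 2.3 CPM (log2 0.83, adjusted p = 0.0632). B4galnt3, the other enzyme that builds this unit, had group means of 12.3 to 20.6 CPM and did not pass (log2 -0.53, adjusted p = 0.318 in p66Low, and -0.01, adjusted p = 0.989 in p66High). Papss1, which makes the sulfate donor, fell by 0.53 (adjusted p = 0.0095) and the sulfate transporter gene Slc26a2 by 0.33 (adjusted p = 0.0456) in p66Low.

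Around Clic3, 1 of 4 family members passed in each selection and not the same one. Clic6 fell from 32.9 ± 27.1 CPM to 0.721 ± 0.295 CPM in p66High (log2 -5.50, SE 0.78, edgeR adjusted p = 0.00238), while in p66Low it was at 216 ± 154 CPM and 94.6 ± 34.5 CPM (log2 -1.19, adjusted p = 0.177). Clic5 rose by 1.38 in p66Low (adjusted p = 0.0371) and was at -0.62 in p66High (adjusted p = 0.379). Clic1 and Clic4 passed in neither. By limma-voom none of the 4 family members passed in either selection (adjusted p = 0.0826 for Clic6 in p66High). Of 8 genes of integrin and protease recycling, Rab25 fell by 0.61 (adjusted p = 0.0101) and the lysosomal gene Lamp1 rose by 0.44 (adjusted p = 0.0251) in p66Low, and by edgeR none passed in p66High (4 at an unadjusted p under 0.05, and 2 after adjustment by DESeq2).

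Around Pitpnm3, Pitpnc1 was the one of 5 family members that passed by edgeR: it rose by 1.09 in p66High (edgeR adjusted p = 0.00138), opposite in sign to Pitpnm3. In p66Low it was at 0.38 (edgeR adjusted p = 0.0815) and Pitpnm1 at 0.40 (0.0505). DESeq2 with adjustment called 2 of the 5 in p66Low and 1 in p66High. Of 13 genes of membrane contact sites and phosphoinositide supply, the contact site gene Esyt1 (0.77, adjusted p = 0.00304) and the lipid synthesis gene Cds2 (0.39, adjusted p = 0.033) rose in p66Low. In p66High Esyt3 rose by 0.98 (adjusted p = 0.0241) and the lipid transfer gene Osbpl5 fell by 0.85 (adjusted p = 0.0386). For Zfp641, none of 8 co-repressor genes of KRAB zinc finger proteins passed by edgeR in either selection. Nor did any of the 14 AP-1 and serum response genes, a list not tied to a member. At an unadjusted p under 0.05, 0 and 2 genes of these lists passed in p66Low and 1 and 5 in p66High. DESeq2 with adjustment called none of the former list, and 1 and 3 of the latter in p66Low and p66High. By limma-voom 1 of the latter passed, in p66Low.

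Of these 13 calls, those of Papss1, Rab25 and Esyt1 in p66Low and of B4galnt4, Clic6 and Pitpnc1 in p66High passed in each of the 12 fits without 1 tumour. Those of Slc26a2 (lost in 9 fits), Osbpl5 (7), Clic5 (5), Lamp1, Cds2, Chst10 and Esyt3 (4 each) did not, with edgeR adjusted p up to 0.168. Over all 20 alternatives, which include other tools, filters and summed libraries, Osbpl5 was lost in 9, and Chst10 and Esyt3 in 5 each. Without the lymph-node-rich libraries none of the p66Low calls passed (adjusted p = 0.059 to 0.599), in a fit with 1 p66Low aggressive tumour, and of the p66High calls Osbpl5 was lost (adjusted p = 0.0634).

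**Figure D4:**
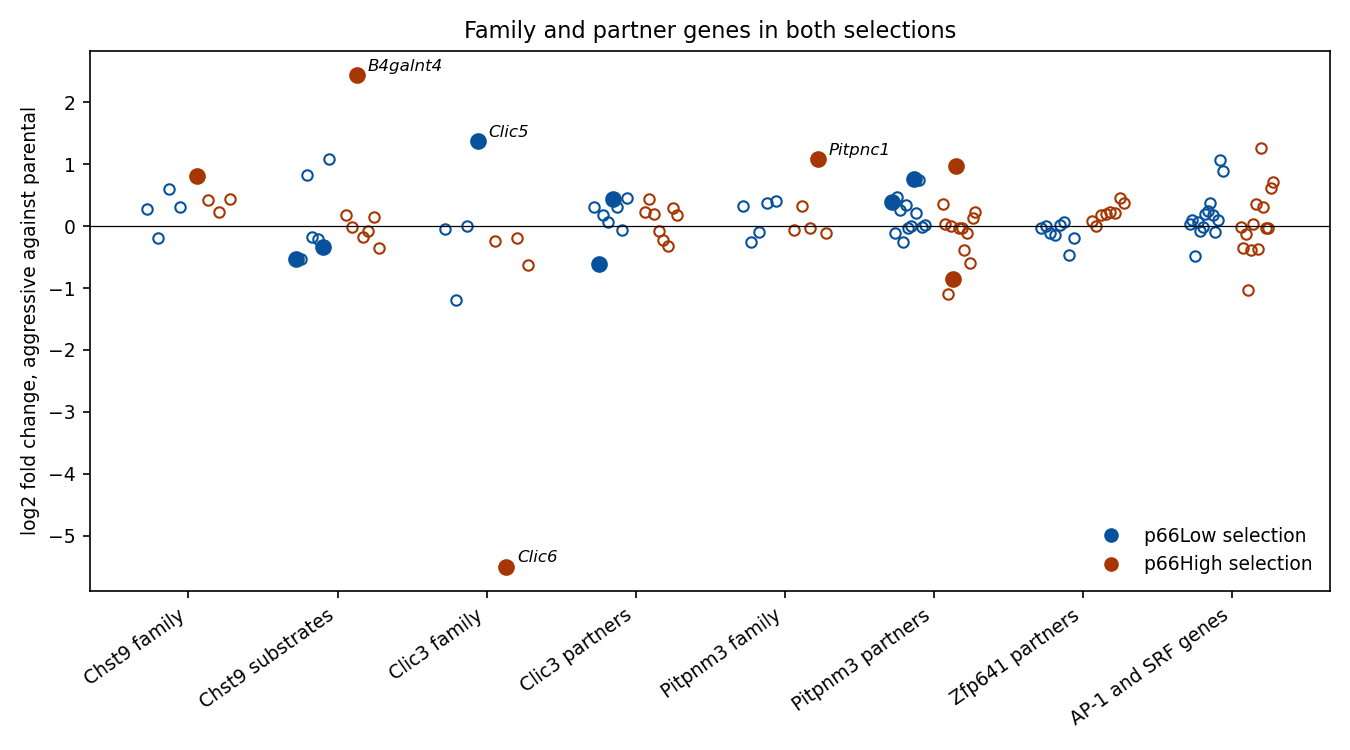
Log2 fold change between aggressive and parental tumours of family and partner genes, in p66Low (blue) and p66High (brown), by list. Filled points passed the edgeR threshold of 0.05 and open points did not; Clic6 (-5.50) and B4galnt4 (2.44), both in p66High, lie farthest from 0.

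Genes near each member on its chromosome were compared with it, since the 4 lie on different chromosomes. Within 500 kb of the start of a member, 87 other genes were tested, 2 around Chst9, 25 around Zfp641, 45 around Clic3 and 15 around Pitpnm3. In p66Low selection 5 were higher and 6 lower, and in p66High selection 6 were higher and 1 lower. These are 12.6% and 8.05% of the neighbours, near the 16.6% and 5.94% of all genes tested. In the same direction in both selections, 2 of the 87 passed (2.3%), where 1.31% of all genes did. Neither neighbour of Chst9 passed by edgeR in either selection, though both had an unadjusted p under 0.05 in p66Low, and DESeq2 called 1 of them there.

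Around Zfp641, the milk protein gene Lalba, 187 kb away, fell in p66Low selection (log2 -1.26, edgeR adjusted p = 0.00644), as did Kansl2 (-0.39, adjusted p = 0.0137) and Snora34 (-0.86, adjusted p = 0.0239), and the histone deacetylase gene Hdac7 rose (0.99, adjusted p = 0.0166). Lalba passed in each fit without 1 tumour, and Kansl2, Hdac7 and Snora34 were lost in 2, 2 and 4 of 12 fits (largest adjusted p = 0.084). None of these 4 calls passed without the lymph-node-rich libraries (Lalba was at -1.47, adjusted p = 0.0728). The fifth p66Low call was Fkbp11 (-0.82, edgeR adjusted p = 0.0459). These 5 calls are 20% of the 25 genes, where 16.6% of all genes and 32% of coding genes of chromosome 15 passed. In p66High selection 2 of the 25 genes passed (8%, where 5.94% of all genes did), both higher. They were the cartilage collagen gene Col2a1 (4.18, edgeR adjusted p = 0.0333, and 2.12 without p66High aggressive replicate 3) and the adenylate cyclase gene Adcy6 (0.40, adjusted p = 0.0455). These last 3 genes lie outside the naming rule and are named after their values were seen. Fkbp11, Col2a1 and Adcy6 were lost in 10, 4 and 9 of 12 fits and did not pass without the lymph-node-rich libraries (adjusted p = 0.424, 0.12 and 0.131). The median log2 fold change of the 25 genes was -0.36 in p66Low and 0.23 in p66High selection, beside -0.29 and 0.10 for 572 coding genes of chromosome 15.

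Around Clic3, edgeR called 3 of 45 genes in each selection (6.67%), all higher, where 16.6% of all genes passed in p66Low and 5.94% in p66High. Rnf208, a ubiquitin ligase gene 215 kb away, rose in both, from 0.135 ± 0.098 CPM to 0.678 ± 0.315 CPM in p66Low (log2 2.45, edgeR adjusted p = 0.015) and from 0.145 ± 0.012 CPM to 0.915 ± 0.394 CPM in p66High (2.61, adjusted p = 0.0178). Rnf208 lost its p66Low call without p66Low parental replicate 1 (edgeR adjusted p = 0.059) or 3 (0.0664). Its p66High call was lost in 5 fits without 1 tumour (edgeR adjusted p up to 0.0746), and in 7 of all 19 alternatives. Without the lymph-node-rich libraries, a fit with 1 p66Low aggressive tumour, the log2 fold changes of Rnf208 were 3.00 in p66Low and 2.69 in p66High. Pnpla7 (0.55, edgeR adjusted p = 0.0127) and the fucosyltransferase gene Fut7 (3.86, adjusted p = 0.032) rose in p66Low. Bmyc (1.62, adjusted p = 0.0221) and the glutamate receptor gene Grin1 (2.83, adjusted p = 0.0407) rose in p66High. Fut7 went from 0.117 ± 0.122 CPM, near the limit of detection, to 1.57 ± 1.25 CPM in p66Low. Grin1 went from 0.422 ± 0.029 CPM to 3.05 ± 2.55 CPM in p66High. Without the lymph-node-rich libraries the log2 fold change of Fut7 was 1.81 (adjusted p = 0.548) and that of Pnpla7 0.41 (0.271), while Bmyc was at 1.79 (0.0669) and Grin1 at 2.78 (0.0688), and none of the 4 passed. Those calls were also lost in 1 (Pnpla7), 2 (Bmyc), 4 (Fut7) and 8 (Grin1) of the 12 fits without 1 tumour.

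Around Pitpnm3, edgeR called 3 of 15 genes in p66Low (20%) and 2 in p66High selection (13.3%), where 16.6% and 5.94% of all genes passed. Ggt6, a gene of the gamma-glutamyltransferase family 299.7 kb away, fell in both selections. It went from 8.46 ± 1.72 CPM to 1.34 ± 0.14 CPM in p66Low (log2 -2.65, SE 0.37, edgeR adjusted p = 0.00131) and from 2.23 ± 0.96 CPM to 0.559 ± 0.309 CPM in p66High (-2.0, SE 0.39, adjusted p = 0.0137). Its p66High call ended without p66High parental replicate 2 (edgeR adjusted p = 0.0503) or p66High aggressive replicate 1 (edgeR adjusted p = 0.0552). Over all 20 alternatives, the p66High call was lost in 3 and the p66Low call in 0. Without the lymph-node-rich libraries, a fit with 1 p66Low aggressive tumour, the log2 fold changes were -2.74 in p66Low and -2.16 in p66High. Between Pitpnm3 and Ggt6 lay Smtnl2, which rose by 2.43 in p66High (adjusted p = 0.0125), and Xaf1, an interferon-induced gene, which rose by 2.34 in p66Low (adjusted p = 0.0259). Gm12712 fell by 1.26 in p66Low (adjusted p = 0.0339). The calls of Smtnl2, Xaf1 and Gm12712 were lost in 3, 4 and 5 of 12 fits (largest adjusted p = 0.155), and none passed without the lymph-node-rich libraries (2.38, 2.90 and -1.57, adjusted p = 0.0512, 0.0736 and 0.18).

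**Figure D5:**
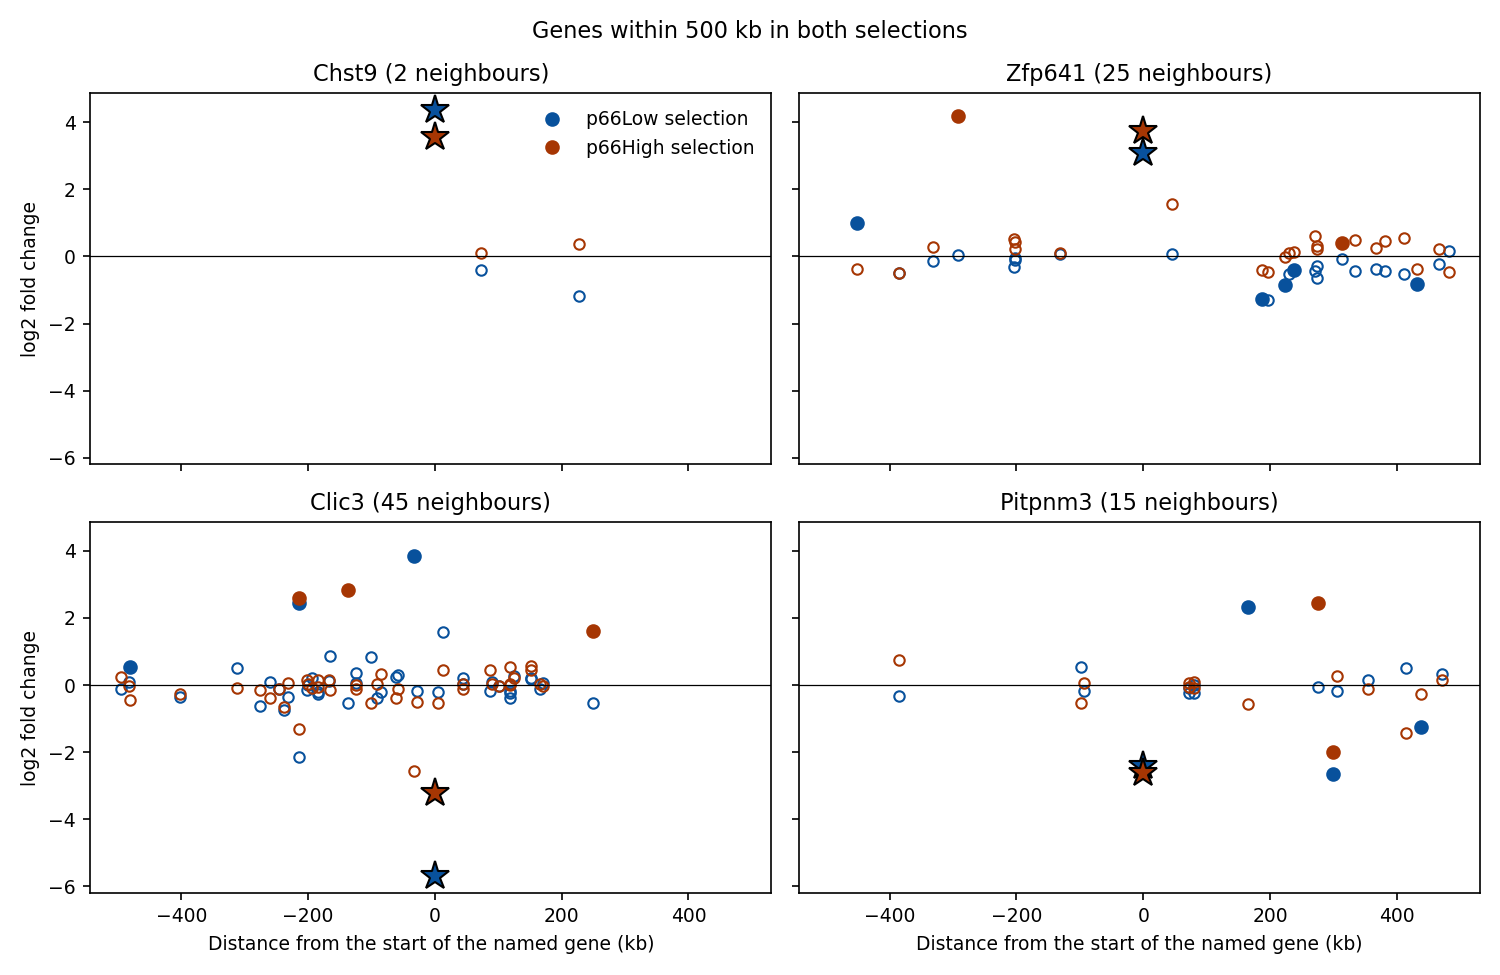
Log2 fold change of genes within 500 kb of each of the 4 genes against the distance between gene starts (kb), in p66Low (blue) and p66High (brown) selection. Stars are the 4 genes, filled circles passed the edgeR threshold of 0.05 and open circles did not; most neighbours lie near 0.

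Levels of other cell types moved with the groups in part. The summed level of 10 luminal epithelial markers was similar, 2729 to 3235 CPM in parental and 2271 to 3409 CPM in aggressive tumours of p66Low, and 2269 to 2710 CPM and 2243 to 2965 CPM in those of p66High, with no marker at 0. In p66High, 8 basal and myoepithelial markers summed to 123 to 149 CPM in parental and 54.5 to 65.9 CPM in aggressive tumours, and 8 endothelial markers to 221 to 239 CPM and 87.2 to 172 CPM, the same direction as Clic3 and Pitpnm3. In p66Low both lists overlapped between parental (67.2 to 115 and 161 to 171 CPM) and aggressive tumours (47.9 to 138 and 112 to 227 CPM). Macrophage markers, 7 in the table, summed to 261 to 291 CPM in parental and 392 to 578 CPM in aggressive tumours of p66Low, with no overlap, and to 310 to 401 CPM and 166 to 325 CPM in those of p66High, which overlapped. The 8 adipocyte markers summed to 127 to 348 CPM in parental and 8.46 to 124 CPM in aggressive tumours of p66High, with no overlap and in the direction of Clic3 and Pitpnm3, and overlapped in p66Low (18.3 to 162 and 30.6 to 342 CPM). In p66Low, 10 T cell markers were at 4.0 to 5.03 CPM in parental and 39.8 to 204 CPM in aggressive tumours, and 8 B cell markers at 1.04 to 1.32 CPM and 3.74 to 178 CPM, neither with overlap and both in the direction of Chst9 and Zfp641. In p66High both overlapped (T cells 5.80 to 38.6 and 3.19 to 11.5 CPM, B cells 1.41 to 35.9 and 0.863 to 2.13 CPM). The 8 fibroblast markers overlapped in both lines, with 1868 to 6112 CPM in p66Low and 1320 to 3849 CPM in p66High tumours. No marker of the basal, endothelial, macrophage or fibroblast lists was at 0 in any tumour, and 3 adipocyte markers were at 0 in p66High aggressive replicate 3. The part of these cells in the changes of the 4 genes and of the other genes named was not tested.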

How the data were processed

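RNA of 12 bulk tumours was made into stranded libraries after depletion of ribosomal RNA, per the labels' protocols. The submitters' processing notes name Trimmomatic 0.32, STAR 2.3.0e, featureCounts 1.4.4 and mm10. The authors deposited raw whole-number counts per gene. Not given in the sources used here are the annotation release, the strand setting and the treatment of multiply mapped reads. Of 39017 gene identifiers, 37607 (96.4%) matched GENCODE M21, which gave positions, biotypes and exon lengths.

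Counts were fitted in R 4.3.3 with edgeR 4.0.16 (filterByExpr, TMM scaling, quasi-likelihood F-test, 4 groups, 8 residual degrees of freedom), with Benjamini-Hochberg adjustment over all genes tested and a threshold of 0.05. SE was taken as the size of the log2 fold change divided by the root of F. The intervals (95%) use 8 degrees of freedom. The averaged p66 contrast is orthogonal in its weights to the selection contrasts that chose the genes, but shares their tumours and estimate of spread. Correlations use log2 CPM with a prior count of 2. Alternatives were RLE and library-size scaling, DESeq2 1.42.0, limma-voom (limma 3.58.1), other filters, summing the same-numbered tumours of a group, and omission of libraries. The fit was tested on simulated counts. The named genes are the 4 members, the 5 coding genes most alike to each (at least 2 CPM in some group), up to 4 called genes per list with the smallest p, neighbours called alike in both selections, and up to 4 other called neighbours per member. The members and lists were chosen with earlier results of these data known. Replicates differed by more than sampling noise in every pair (lowest chi-square per degree of freedom 21.0).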

Additional observations from a re-analysis of the deposited data

Results flagged for a closer look

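Of 26 family, partner and neighbour genes named in the report, 17 had a selection effect that differed between the lines by the edgeR interaction test (adjusted p under 0.05), where 12.4% of all genes tested did. They were named because they passed in one of the selections, so their share cannot be read against that of all genes. The same choice favours large differences, so the sizes and adjusted p-values below are a description. The difference is given as the log2 fold change in p66High minus that in p66Low. Among relatives and partners of Clic3 it was -4.31 for Clic6 (adjusted p = 0.0164), -2.0 for Clic5 (0.0400), 1.05 for Rab25 (0.00785) and -0.66 for Lamp1 (0.0241). Among those of Chst9 it was 1.61 for B4galnt4 (0.0248), 0.71 for Papss1 (0.0174) and 0.49 for Slc26a2 (0.0497). Among those of Pitpnm3 it was -1.15 for Esyt1 (0.00419) and 0.71 for Pitpnc1 (0.0374). Among neighbours of Clic3 it was -6.42 for Fut7 (0.0257), 3.36 for Grin1 (0.0465), 2.16 for Bmyc (0.0183) and -0.99 for Pnpla7 (0.00782). Fut7 was near the limit of detection in p66Low parental (0.117 ± 0.122 CPM) and p66High aggressive tumours (0.0508 ± 0.0879 CPM). Its difference was -3.95 without the lymph-node-rich libraries. For Zfp641 they were Hdac7 at -1.37 (0.0229) and Kansl2 at 0.51 (0.0252), and for Pitpnm3 Xaf1 at -2.92 (0.0498) and Smtnl2 at 2.49 (0.0283). The differences of Esyt1, Pnpla7, Rab25, Clic6 and Papss1 passed in each of the 12 fits without 1 tumour. Without the lymph-node-rich libraries, the difference of Esyt1 passed (-0.95, adjusted p = 0.047) and those of the other 16 did not. Of the 4 members, the difference was 2.48 for Clic3, 0.65 for Zfp641, -0.22 for Pitpnm3 and -0.80 for Chst9, and was not tested, since the selection contrasts chose them.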

How the results depend on the processing

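The 4 genes kept the direction of both selections in all 20 alternatives each (scaling, tool, filter, summed libraries and libraries left out). Leaving out 1 tumour gave log2 fold changes from 3.76 to 4.94 and 3.14 to 3.77 for Chst9 (p66Low, then p66High), 2.72 to 3.63 and 3.41 to 4.08 for Zfp641, -5.92 to -5.44 and -3.48 to -2.73 for Clic3, and -2.81 to -1.41 and -3.09 to -2.42 for Pitpnm3. Without the lymph-node-rich libraries, which leaves 1 p66Low aggressive tumour that is assumed to vary like the rest, Chst9 was at 5.03 in p66Low. The averaged p66 difference of Chst9 failed in 13 of 20 alternatives: limma-voom 1.18 (adjusted p = 0.166), no filter 1.17 (0.0513), lymph node libraries left out 0.85 (0.255), summed libraries 1.12 (0.108), and 9 fits without 1 tumour (0.97 to 1.46 over the 12). It passed with DESeq2 at 1.18 (0.0262). Leaving out 1 tumour gave -0.32 to 0.13 for Zfp641, with the sign reversed without p66Low parental replicate 2 (0.13) and p66High parental replicate 3 (0.02), -1.04 to -0.67 for Clic3 and 0.19 to 0.90 for Pitpnm3.

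Genes called in the averaged p66 comparison numbered 1486 without the lymph node libraries, against 3030, and 2266 to 3183 without 1 tumour. Genes higher in both selections numbered 241 by DESeq2, 52 without the lymph node libraries, 67 with summed libraries and 78 to 128 without 1 tumour. Those lower in both numbered 236, 30, 39 and 57 to 127. Listed family and partner genes called in p66Low numbered 15 with library size alone, 15 by DESeq2, 0 by edgeR without the lymph node libraries (9 at an unadjusted p under 0.05) and 3 to 12 without 1 tumour. In p66High they numbered 12 by DESeq2, 3 with summed libraries and 3 to 6 without 1 tumour. Neighbours called in p66Low numbered 19 by DESeq2, 2 without the lymph node libraries and 3 to 15 without 1 tumour, and in p66High 15, 1, 1 with summed libraries, and 1 to 11. The cause of these shifts was not tested. With library size alone, the median log2 fold change of all genes in p66Low selection was 0.085, against -0.020 in the main fit. It was -0.0088 against -0.0021 in p66High selection, and -0.042 against -0.025 in the averaged p66 comparison. No paired analysis was possible because the labels give no replicate numbers shared between groups. Depth limits Chst9 in p66Low parental and Clic3 in aggressive tumours, which rest on at most 6 reads a library.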
